A study of Mus musculus with 2 samples.

Results

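The immediate early transcription factors of the AP-1 and EGR classes were followed in cultured macrophages differentiated from mouse bone marrow (BMDMs), with and without the bile acid deoxycholic acid. The 10 genes were chosen by name as rows of a table of 15576 genes: Jun, Junb and Jund, Fos, Fosb and Fosl2, Egr1, Egr2 and Egr3, and Atf3. The table holds 2 libraries from wild-type mice. The DCA library came from BMDMs given 100 µM deoxycholic acid for 24 h, and the NC library from untreated BMDMs. The sources used here do not give the vehicle, the age or sex of the mice, or the number pooled, and they leave unclear if a further day passed before collection. With 1 library in each group there was no test, and the variation from culture to culture is not known for any difference below.

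AP-1 is a dimer of basic leucine zipper proteins. Jun proteins pair with each other or with Fos proteins, Fos proteins need a Jun partner to bind DNA, and ATF3 pairs with Jun proteins or with itself. EGR proteins bind GC-rich sites through zinc fingers and are restrained by the corepressors NAB1 and NAB2. Many genes of both classes are switched on within minutes of a stimulus. This runs through MAP kinases acting on serum response factor, its ternary complex partners and CREB/ATF proteins. Transcripts of such genes are short-lived. In macrophages these genes respond to growth factors such as M-CSF and to microbial products, and they are also induced when cells are handled or dissociated.

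Values are the FPKM that the authors deposited, a read count divided by gene length in kilobases and by 1e6 reads. The FPKM hold whole reads, so each value is also given as the reads behind it; the read totals were 59.2 M for NC and 56.6 M for DCA, where M stands for 1e6 reads. Ratios are of reads scaled to these totals, DCA over NC, with an exact Clopper-Pearson 95% interval that covers counting error only. Reads that are PCR copies are not independent, so the real counting error is larger. Over all genes tested, which are those whose FPKM averaged 1 or more, the spread of the log ratio was 2.65 times its counting error, so an interval that excludes a ratio of 1 is common: this held for 45.7% of genes, 25.7% higher and 20% lower in DCA.

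The regulatory sequences of the factors are shown first, because immediate early genes are known for this control: by CREB/ATF and serum response factor at the promoter, and by AU-rich elements in the 3′ UTR. RefSeq start sites of GRCm38.p6 were at hand for 8 of the 10 genes, all but Egr1 and Egr3. Egr2 had 5 entries, of which only the one nearest the start of its main GENCODE transcript was used, so its other starts were not searched. The 250 bases upstream of each start used were searched on both strands for the core of the cAMP response element, TGACGT, for the AP-1 site TGANTCA, for TGACATCA, for TATAAA, for the CArG box of serum response factor and for the EGR site GCGTGGGCG, none of which overlapped another in these promoters. TGACGT was found in 3 of the 8 (Fos, Egr2 and Atf3), against 6.47% of 32851 promoters searched over the same length. Fos also held TATAAA (12.4% of all promoters), Jun held TGACATCA (2.93%) and Egr2 a CArG box (1.47%). TGANTCA (6.75% of all) and GCGTGGGCG (0.536%) were in none of the 8. Sites beyond these 250 bases were not searched, so a gene without a match here may hold one further upstream. The stretches just before the start are printed 5′ to 3′ for the genes with a match, with the matches in capitals. For Atf3, where the RefSeq start and that of the main GENCODE transcript differ by 7 bases, only the last 30 bases are given.
Fos promoter, chr12:85473790-85473889, plus strand: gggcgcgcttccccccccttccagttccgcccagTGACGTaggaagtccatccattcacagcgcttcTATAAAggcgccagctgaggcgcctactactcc
Jun promoter, chr4:95052223-95052322, minus strand: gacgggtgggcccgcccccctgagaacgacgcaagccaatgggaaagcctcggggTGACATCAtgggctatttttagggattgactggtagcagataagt
Egr2 promoter, chr10:67537769-67537868, plus strand: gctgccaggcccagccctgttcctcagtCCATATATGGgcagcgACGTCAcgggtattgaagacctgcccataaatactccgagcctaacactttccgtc
Atf3 promoter, chr1:191183334-191183363, minus strand: cctggaagctattaatagcattACGTCAgc

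Fos and Jun thus carry different elements near the start, and Egr2 carries a CArG box 72 to 63 bases upstream beside the reversed core at 56 to 51. For Jund the RefSeq start lies 1210 bases upstream of the GENCODE one and for Fosl2 671 bases downstream of it, so these windows may not be the promoters that the reads came from. The same holds for Atf3 and Egr2, whose annotated genes begin upstream of the printed windows. Atf3 begins at 191218039 on chromosome 1, minus strand, and Egr2 at 67535475 on chromosome 10, plus strand.

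The pentamer ATTTA, the unit of AU-rich elements bound by tristetraprolin, occurred at least once in the 3′ UTR of 10 of 10 factors, against 67.6% of 9324 tested coding genes, and at least 3 times in 6 of 10, against 35.3%. Long UTRs hold more matches by length alone, and the rate was 4.91 per kb in Fos, 4.12 in Junb and 3.24 in Jun, against a median of 1.30 over the coding genes. The lowest rate was that of Fosb, at 0.466 per kb. The longer element TTATTTATT was present in 2 of 10, Fos and Fosl2, against 7.21% of the coding genes. Sites of 30 bases with the most copies are printed for the genes that the results turn on, with ATTTA in capitals. They are taken from GENCODE transcripts of GRCm38.
Fos 3′ UTR site, chr12:85477100-85477129, plus strand: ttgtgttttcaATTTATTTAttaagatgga
Fosl2 3′ UTR site, chr5:32156864-32156893, plus strand: aattgacATTTAttttattATTTAttttaa
Jun 3′ UTR site, chr4:95049207-95049236, minus strand: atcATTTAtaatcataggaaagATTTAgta
Junb 3′ UTR site, chr8:84977127-84977156, minus strand: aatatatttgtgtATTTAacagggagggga
Atf3 3′ UTR site, chr1:191171242-191171271, minus strand: caccaattccaggATTTAggccttatcatc

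In Fos the copies overlap, as ATTTATTTA, while those of Fosl2 and Jun stand apart and the Junb and Atf3 windows hold a single copy. A match describes the sequence only, and none was tied to a difference between the libraries.

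The factors were present at very different levels. Deposited FPKM cannot be compared between genes, because the lengths behind them add up all annotated transcripts of a gene, which makes the length used for Fosb 3.67 times and that for Egr2 3.22 times the merged exons. Levels were therefore set as reads per kb of merged exon and 1e6 reads. In NC the order was Fos (83.1), Jun (57.5), Junb (38.5), Jund (33.1), Atf3 (33.0), Egr1 (22.2), Fosl2 (11.8), Egr3 (3.21), Egr2 (2.12) and Fosb (0.0622). Fos thus exceeded 97.3% and Jun 95.7% of all genes of the table in NC by this level. Jund and Atf3 were neighbours that did not differ in NC beyond counting error, at 32.0 to 34.3 and 32.0 to 34.0. In DCA they did, with Jund at 34.9 (33.7 to 36.1) and Atf3 at 28.5 (27.5 to 29.4). Jund shares 52.6% of its exonic bases with an antisense gene, and how reads there were counted is not stated. Its level and rank may therefore be off by more than counting error. The order of the 10 genes was the same in both libraries.

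**Figure D1:**
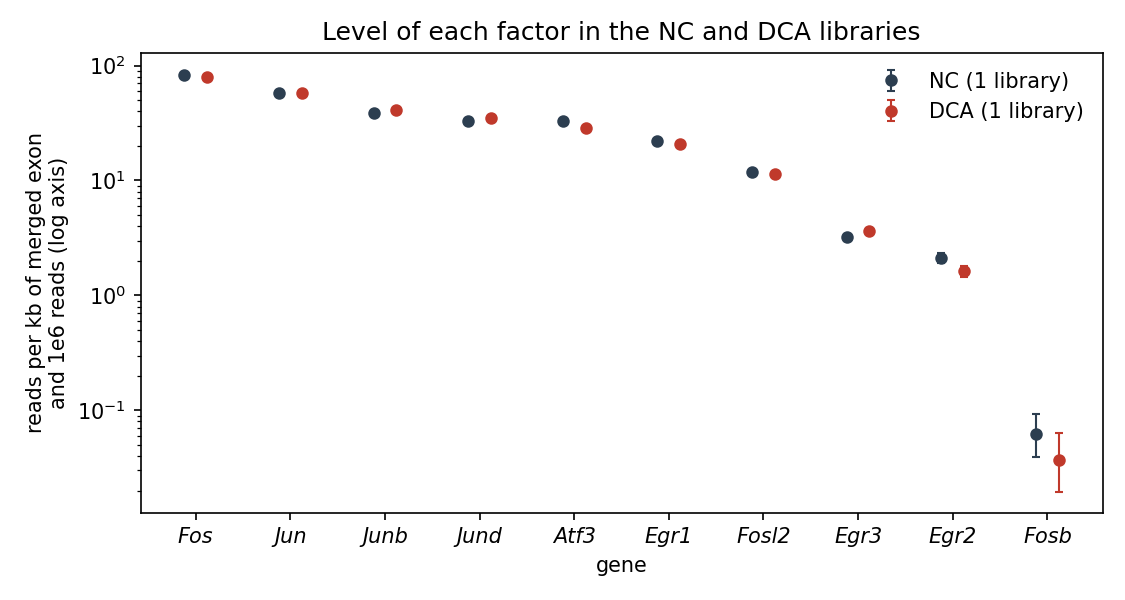
Level of each factor in the NC (dark) and DCA (red) library, in reads per kb of merged exon and 1e6 reads on a log axis, with exact Poisson 95% intervals of counting error. The genes are ordered by their NC level, from Fos at 83.1 to Fosb at 0.0622, and the points of the libraries lie close together, with a visible gap for Atf3, Egr2, Egr3 and Fosb.

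The differences between the libraries were small. On the scale of log2(FPKM + 1), 8 of the 10 factors passed the filter on low values, and 4 of these lay higher and 4 lower in DCA, where 53.5% of all tested genes lay higher and 46.5% lower. Their median difference was -0.014, against 0.0067 over all tested genes. Of these 8, Atf3 was the 1 factor at least 1.1-fold apart, on the lower side, where 4.79% of all tested genes were; none was 1.1-fold higher, where 8.99% were. Egr2, below the filter, was also past this limit on the lower side, at 0.907 on the FPKM + 1 scale. The counting interval of the ratio excluded equality for 7 of the 10, with 3 higher and 4 lower. Among the 8 that passed the filter it did so for 6, with 3 higher and 3 lower, to be read beside the 45.7% of all tested genes. With the interval widened by the factor of 2.65, a choice made after seeing the data, it did so for Atf3 alone, on the lower side, and for 7.21% of all tested genes (4.4% higher and 2.81% lower).

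Jun, Junb and Jund encode the partners that every AP-1 dimer of this kind contains. Jun (ENSMUSG00000052684, chromosome 4, 95049034 to 95052222, minus strand, GRCm38 as for all coordinates here), whose product c-Jun is activated by JNK, was at 57.5 FPKM in NC (10847 reads) and 58.0 in DCA (10472 reads). Its ratio of 1.01 (0.984 to 1.04) included equality, and 87.3% of tested genes lay further from 1.

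Junb (ENSMUSG00000052837, chromosome 8, 84974484 to 84978718, minus strand), whose product is a weaker activator that can hold back c-Jun, was at 38.5 FPKM in NC (5249 reads) and 41.4 in DCA (5385 reads). It lay higher in DCA, with a ratio of 1.07 (1.03 to 1.12), and 32.4% of tested genes lay further from 1. Jund (ENSMUSG00000071076, chromosome 8, 70698949 to 70700616, plus strand), the most evenly expressed of the Jun genes in most tissues, was at 33.1 FPKM in NC (3269 reads) and 34.9 in DCA (3292 reads). Its ratio was 1.05 (1.004 to 1.11), with a lower bound close to 1. All 3 Jun genes have a single exon in their main transcript, and all 3 share exonic bases with another annotated gene, which no other factor does. For Jun these are 232 bases (7.28% of its exons) shared with the antisense gene Junos, and for Jund 877 bases (52.6%) shared with the antisense gene Gm11175. Neither of these has a value here, the sources used here give no strand setting for the counting, so reads of gene and antisense cannot be told apart. Junb shares 173 bases (7.52%) with Prdx2, which had 5816 reads in NC and 5663 in DCA, with a ratio of 1.02 (0.982 to 1.06); Junb and Prdx2 together had a ratio of 1.04 (1.02 to 1.07).

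The Fos genes encode the partners that bring stability and activation to a Jun dimer. Fos (ENSMUSG00000021250, chromosome 12, 85473890 to 85477273, plus strand), the prototype of the immediate early genes, was at 44.7 FPKM in NC (11571 reads) and 42.7 in DCA (10539 reads). It lay lower in DCA, at a ratio of 0.953 (0.928 to 0.979), while 48.4% of tested genes lay further from 1. Fosl2 (ENSMUSG00000029135, chromosome 5, 32135801 to 32157842, plus strand), which encodes FRA-2, a Fos protein without a strong activation domain, was at 9.78 FPKM in NC (6784 reads) and 9.47 in DCA (6274 reads). Its ratio of 0.968 (0.935 to 1.002) included equality. Fosb (ENSMUSG00000003545, chromosome 7, 19302696 to 19310051, minus strand) was close to undetected, at 0.0170 FPKM in NC (23 reads) and 0.0100 in DCA (13 reads), and its ratio of 0.592 (0.275 to 1.22) showed no difference detectable at this depth. The remaining Fos gene, Fosl1, is no member of the group of 10 and was named after its values were seen. It had 0 counted reads in both libraries, a count that allows up to 3 in each, but 1163 of its exonic bases are shared with Ccdc85b, and how reads in shared exons were counted is not stated.

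Set as sums, the 3 Jun genes had 19365 reads in NC and 19149 in DCA, which gives a ratio of 1.03 (1.01 to 1.06). The 3 Fos genes had 18378 reads in NC and 16826 in DCA, which gives 0.958 (0.938 to 0.978). Summed reads of the Jun genes over summed reads of the Fos genes were 1.08 times as high in DCA as in NC (1.05 to 1.11). This quantity does not depend on the scaling of the libraries, and its widened interval of 1.0005 to 1.17 just excluded equality. The factor of 2.65 behind that interval comes from single genes, and no share over other pairs or sums of genes was computed. Both summed ratios lie well inside the 5th to 95th percentile of single tested genes, 0.883 to 1.18. Single pairs are compared by their level per kb. Junb over Fos was 0.464 in NC and 0.522 in DCA, which differ by 1.13 (1.08 to 1.18), and Jun over Fos differed by 1.06 (1.02 to 1.10). With the interval widened, both pairs included equality, at 0.997 to 1.27 for Junb over Fos and 0.959 to 1.17 for Jun over Fos. Within the families the mix hardly moved: Jun made up 44.5% of the Jun family in NC and 43.2% in DCA. Junb made up 29.8% in NC and 30.8% in DCA, and Jund 25.6% and 26.0%. Of the Fos family, Fos made up 87.5% in NC and 87.3% in DCA. These sums rest on 1 library each, and the Jun genes are the ones that overlap other genes.

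**Figure D2:**
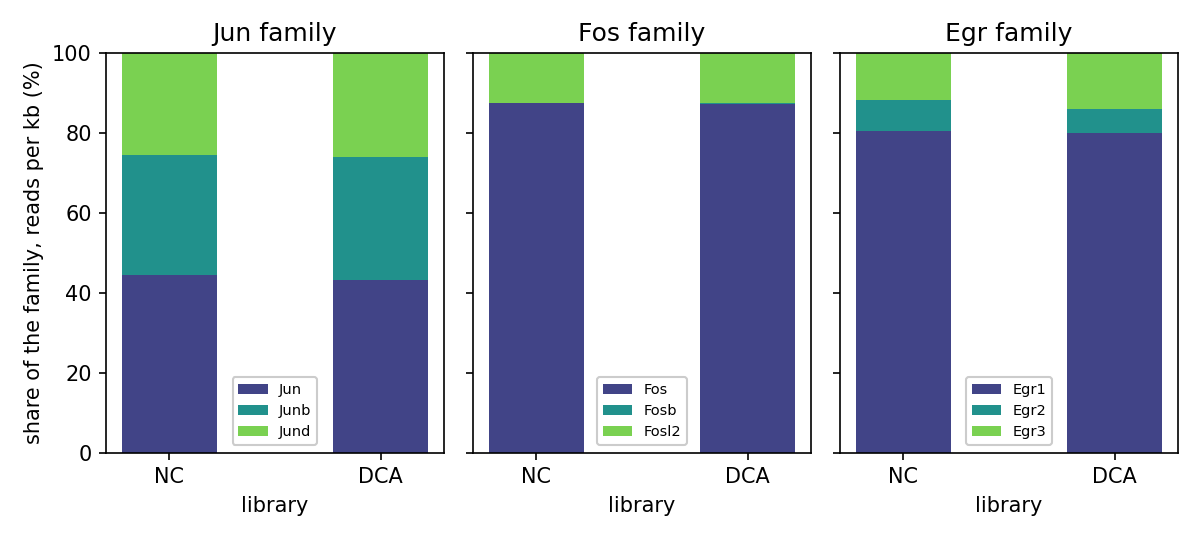
Share of each gene in the summed level of its family, in percent of reads per kb of merged exon, for the NC and DCA library. The Jun and Fos families have nearly the same make-up in both libraries, and in the Egr family Egr3 goes from 11.7% in NC to 13.9% in DCA while Egr2 goes from 7.72% to 6.19%.

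The EGR factors did not lie to one side. Egr1 (ENSMUSG00000038418, chromosome 18, 34859823 to 34864984, plus strand), the most abundant of them and a factor of monocyte and macrophage differentiation, was at 13.2 FPKM in NC (5883 reads) and 12.5 in DCA (5313 reads), with a ratio of 0.945 (0.911 to 0.981). Egr1 over Fos was 0.267 in NC and 0.264 in DCA, which differ by 0.992 (0.947 to 1.04), so these 2 genes lay lower by amounts that counting error does not separate. Egr2 (ENSMUSG00000037868, chromosome 10, 67535475 to 67542188, plus strand), a regulator of myelination that macrophages also express during alternative activation, was at 0.659 FPKM in NC (427 reads) and 0.504 in DCA (312 reads). It lay lower at a ratio of 0.765 (0.659 to 0.887), below the filter on low values. Egr3 (ENSMUSG00000033730, chromosome 14, 70077203 to 70082614, plus strand), known from T cells and muscle spindles, was at 1.44 FPKM in NC (838 reads) and 1.64 in DCA (910 reads), and lay higher at 1.14 (1.03 to 1.25). Egr3 over Egr2 was 1.51 in NC and 2.25 in DCA, which differ by 1.49 (1.24 to 1.77). This was the widest gap among the pairs compared, and it came from the lowest counts after those of Fosb. With the interval widened by the spread of all tested genes, this ratio included 1, at 0.939 to 2.35.

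Atf3 (ENSMUSG00000026628, chromosome 1, 191170296 to 191218039, minus strand), a stress-induced factor of the ATF/CREB class that restrains inflammatory genes in macrophages, stood furthest from equality in units of its own counting error. It was at 16.1 FPKM in NC (4203 reads) and 13.9 in DCA (3468 reads). It lay lower in DCA at 0.864 (0.825 to 0.903), and 3.44% of tested genes had a lower ratio, while 9.69% lay further from 1 in either direction. The widened interval ran from 0.767 to 0.973. Atf3 was also lower against its Jun partners. Atf3 over Jun was 0.574 in NC and 0.490 in DCA, which differ by 0.855 (0.811 to 0.901; widened 0.744 to 0.982). Atf3 over Jund was 0.996 in NC and 0.816 in DCA, which differ by 0.819 (0.767 to 0.876; widened 0.688 to 0.976). Against Fos the ratio differed by 0.906 (0.860 to 0.955), and the widened interval of 0.789 to 1.04 included equality. No exon of Atf3 overlaps another annotated gene.

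**Figure D3:**
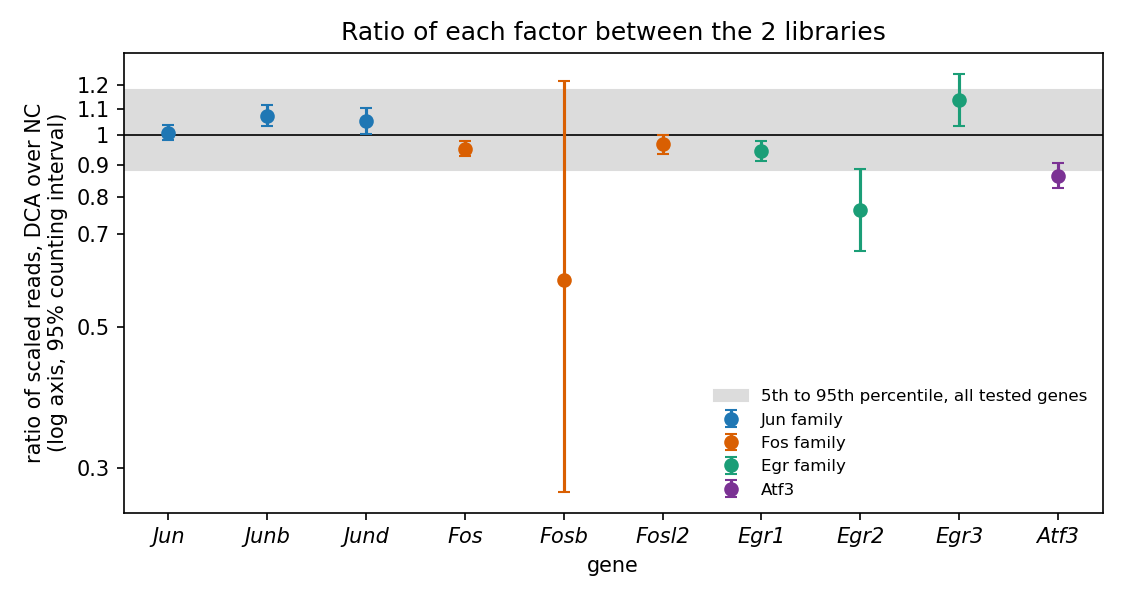
Ratio of scaled reads, DCA over NC, on a log axis, for the 10 factors coloured by family, with 95% counting intervals; the grey band holds the 5th to 95th percentile of all tested genes (0.883 to 1.18). Jun, Junb and Jund lie at or above 1, the Fos genes below it, and Egr2, Fosb and Atf3 fall under the band, with an interval for Fosb that spans 1.

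The surrounding pathway was described with lists of known genes, read beside 25.7% of tested genes with a counting interval above and 20% below equality. Of the other AP-1 proteins, 8 of 12 were tested, with 3 higher and 5 lower in DCA, a median ratio of 0.968, and intervals off equality for 1 higher and 3 lower. The highest was Atf7, a CREB-like partner of Jun, at 1.06 (1.02 to 1.10), and the lowest Batf, a partner of Jun in lymphoid and dendritic cells, at 0.900 (0.804 to 1.01). Exons of Atf7 overlap those of Gm28047.

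Upstream of the factors, the 9 tested regulators of the serum response factor and CREB class lay higher in 7 and lower in 2, at a median ratio of 1.02, with 4 intervals above equality and none below. Crtc3, a CREB coactivator, was highest at 1.16 (1.09 to 1.24), and Elk1, a ternary complex factor, lowest at 0.995 (0.935 to 1.06). Srf itself, named after its value was seen, had a ratio of 1.02 (0.964 to 1.08). Of 20 tested genes of the MAP kinase cascades, 14 lay higher and 6 lower, at a median ratio of 1.03, with 11 intervals above equality and 3 below. Hras was highest at 1.24 (1.15 to 1.34), and Map2k3, an activator of p38, lowest at 0.934 (0.900 to 0.970). Sorted by branch after the values were seen, 5 of 5 genes of the JNK branch lay higher, all with intervals above equality: Map3k1 at 1.05, Map2k4 at 1.15, Map2k7 at 1.12, Mapk8 at 1.14 and Mapk9 at 1.07. Map2k7 shares exonic bases with Gm49320. The ERK branch was higher in 5 of 7, at a median ratio of 1.03, and the p38 branch in 1 of 3 tested genes. The remaining p38 gene, Map2k6, was below the filter and is named after its value was seen. Its ratio was 1.31 (1.14 to 1.51). With a sort made after the values were seen and 1 library in each group, a difference between the branches was not tested. These are transcript levels, and the activity of the kinases was not measured.

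Of the 15 tested feedback inhibitors, which include dual specificity phosphatases, Sprouty proteins, the NAB corepressors and the tristetraprolin family, 6 lay higher and 9 lower, at a median ratio of 0.988, with 3 intervals on each side. Spry2, an inhibitor of Ras signalling, was highest at 1.18 (1.07 to 1.29), and Dusp16, a JNK phosphatase, lowest at 0.882 (0.812 to 0.957). The NAB genes, which are themselves targets of EGR factors, were at 0.999 (0.967 to 1.03) for Nab1 and 0.940 (0.881 to 1.003) for Nab2. Zfp36, which encodes tristetraprolin, was at 1.03 (1.01 to 1.06). These 3 genes were named for their roles beside the EGR factors and the ATTTA sites, after their values were seen, and exons of Nab2 and Zfp36 overlap other annotated genes.

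Other immediate early genes covered a wider range. Of 25 tested, 15 lay higher and 10 lower, at a median ratio of 1.04, with 12 intervals above equality and 5 below. Klf4, a Krüppel-like factor of monocytes, was highest at 3.26 (2.87 to 3.70), from 1.26 FPKM in NC to 4.12 in DCA, and Trib1, a pseudokinase, lowest on the log2(FPKM + 1) scale, with a ratio of 0.853 (0.794 to 0.915). The lowest ratio of reads was that of Ptgs2, the inducible cyclooxygenase, at 0.817 (0.710 to 0.938). On the FPKM + 1 scale, 4 were at least 1.1-fold higher (Klf4, Klf2, Phlda1 and Sik1) and 4 at least 1.1-fold lower (Trib1, Klf10, Ptgs2 and Socs3), names given after the values were seen. Klf2, a quiescence factor, had a ratio of 1.32 (1.25 to 1.39) and Sik1, a kinase induced by CREB, 1.20 (1.13 to 1.27). The same limits were passed by 8.99% and 4.79% of all tested genes. Ccn1, below the filter and named after its values were seen, had 7 reads in NC and 0 in DCA.

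Heat shock chaperones, which are induced together with immediate early genes when cells are handled, were higher in 5 of 8 tested members and lower in 3, at a median ratio of 1.01, with no interval above equality and 2 below. Dnajb1 was highest at 1.04 (0.989 to 1.10) and the co-chaperone gene Bag3 lowest at 0.909 (0.846 to 0.977). Hspa1a, Hspa1b and Hspb1 were below the filter and are named after their values were seen. Hspa1a had 64 reads in NC and 83 in DCA, a ratio of 1.36 (0.968 to 1.91). Hspa1b had 54 reads in NC and 69 in DCA, a ratio of 1.34 (0.923 to 1.95). Hspb1 had 0 reads in NC and 4 in DCA, and the intervals of all these genes included equality. Among 18 genes known as targets of AP-1 or EGR factors, 16 were tested, of which 5 lay higher and 11 lower, at a median ratio of 0.964, with 4 intervals above equality and 8 below. Plau, the urokinase gene with AP-1 sites in its enhancer, was lowest at 0.799 (0.777 to 0.823), and Vegfa, an angiogenic factor, highest at 1.15 (1.12 to 1.19). A target gene has many regulators, and nothing is read from these values about the activity of the factors.

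**Figure D4:**
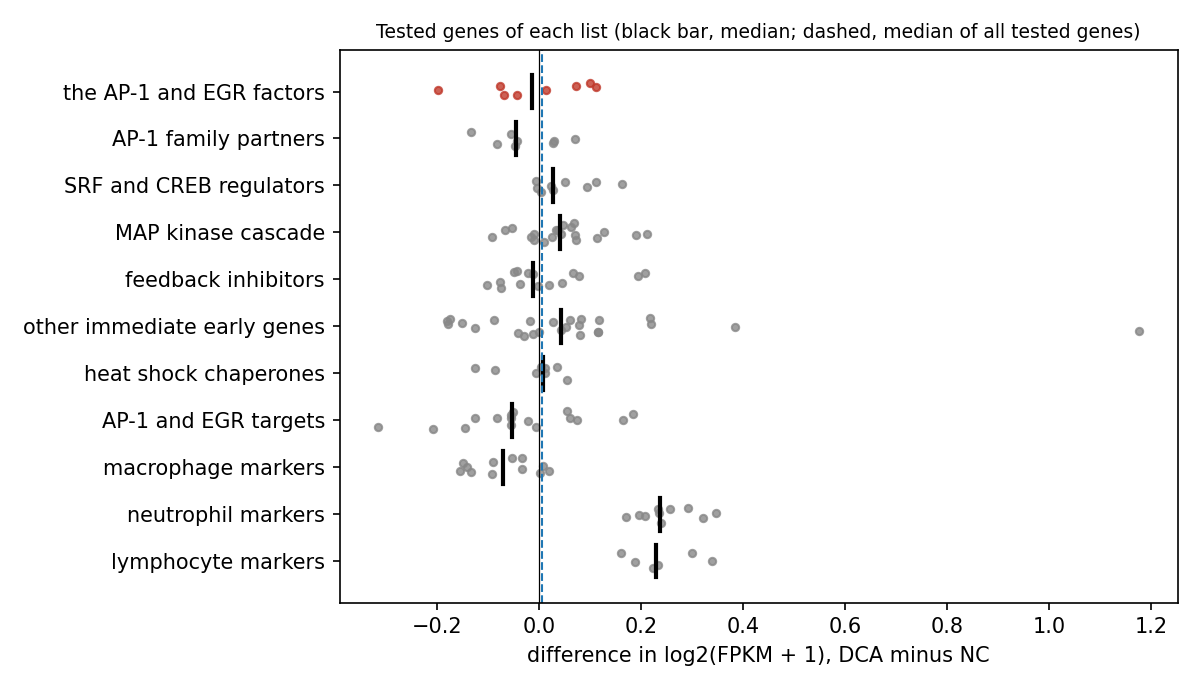
Difference in log2(FPKM + 1), DCA minus NC, for each tested gene of each list (points), with the median of the list as a black bar and the median of all tested genes (0.0067) as a dashed line. The AP-1 and EGR factors, in red, spread around 0 between Atf3 on the left and Egr3 on the right, neutrophil and lymphocyte markers lie to the right of 0, and the far point among other immediate early genes is Klf4.

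The cultures also differed in markers of other cells. The counts below are to be read beside all tested genes, of which 53.5% lay higher and 46.5% lower in DCA. Counting intervals of all tested genes lay above equality for 25.7% and below it for 20%. All 12 macrophage markers passed the filter, and their summed level per kb was 11678 in NC and 11762 in DCA, with 9 of 12 lower and a median ratio of 0.951. Their intervals lay above equality for 1 and below it for 8. Lyz2, named after its values were seen, made up 82.8% of this sum in NC and 83.3% in DCA, and without it the sum was 2010 in NC and 1959 in DCA. The 10 neutrophil markers had a summed level of 5258 in NC and 6220 in DCA and a median ratio of 1.18, with 10 of 10 higher, and 6 of 6 tested lymphocyte markers were higher, with a summed level of 239.6 against 196.0. All of these tested neutrophil and lymphocyte markers had intervals above equality. Markers of mast cells, basophils and eosinophils were higher in 6 of 6, 4 of them with intervals above equality. Their summed level was 126.9 in DCA against 90.6 in NC. Prg2, named after its values were seen, made up 72.8% of this sum in NC and 76.5% in DCA. Without it the sum was 24.7 in NC and 29.9 in DCA. Of the dendritic cell markers 3 of 4 tested were higher, 2 of them with intervals above equality. Among the stromal, endothelial and erythroid markers Pecam1 alone, named for this reason, passed the filter. No marker of these lists that the table holds was at 0 in both libraries. The AP-1 and EGR factors are expressed in these cells as well, and the part of the other cells in their values was not tested. In a bulk sample, fewer cells of a type and less RNA per cell cannot be told apart.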

How the data were processed

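The deposited table gives FPKM values made by the authors for 15576 genes in 2 libraries, 1 per group. The submitters' processing notes name GRCm38, HTSeq 0.6.0, STAR 2.5.0c and DESeq2 3.0 besides Picard 1.126 and bedtools 2.17.0. Their roles, the gene lengths and the strand setting are not stated there. Columns were matched to samples by title.

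Reads were rebuilt from FPKM with the summed transcript lengths of GENCODE M21, which were found for 15548 identifiers. Of 11794 genes with under 5000 reads, 96.4% came out whole within 0.05 of a read in both libraries. For genes that did not, lengths up to 5 bases away were tried, which set Jund at 1667 bases in place of 1668. Differences were taken on log2(FPKM + 1), a scale that shrinks those of low genes, over the 9656 genes whose FPKM averaged 1 or more. Counting intervals use the 9389 of them with whole reads. Read recovery and intervals were tested on data simulated with counting error only. The spread beyond counting error seen in the real libraries was not part of it, so the intervals were not tested for that spread. Python 3.11.15, numpy 2.4.6, scipy 1.17.1 and pandas 2.3.3 were used.

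The 10 genes and all lists were chosen with earlier results of these data known. The text names all 10 genes and, from each pathway list, the highest and the lowest tested gene; other names were chosen after their values were seen and are marked so. Promoter sequences are from RefSeq (GRCm38.p6), 3′ UTR sequences from GENCODE. Alternatives were other pseudocounts, filters, scalings, intervals and lengths, and leaving out genes with overlapping exons.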

Additional observations from a re-analysis of the deposited data

How the results depend on the processing

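No paired analysis was possible because each group has 1 library and the results come from no test. The number of factors higher in DCA, 4 of 8, was 1 of 5 without the factors whose exons overlap another annotated gene, which leaves out the 3 Jun genes, and the median difference was then -0.068 in place of -0.014. The median stayed below 0 in all the other pseudocounts, filters and scalings tried, between -0.059 (each library rescaled to sum to 1e6, where Egr2 also passes the filter) and -0.0086 (pseudocount 5). The number of factors whose interval excludes equality, 7 of 10, was 1 with the interval widened by the spread of all tested genes, 6 of 10 with a 99% interval, 5 of 7 without the factors that overlap another gene, and 7 of 10 in the others. The changes in family shares kept their direction under both other weightings. No single factor with an interval off equality changed sign. Depth limits Fosb most, at 13 and 23 reads, followed by Egr2 and Egr3.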
